A study of Mus musculus with 6 samples.

Results

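Tendon and enthesis genes were followed in joint tissue of mice with and without Igf2bp2. Of 22032 genes in the count table, 8 were taken by symbol from a list of tendon and fibrocartilage genes: Scx, Mkx, Tnmd, Thbs2, Thbs4, Tnc, Angptl7 and Chrdl1. All 8 were counted in every library, and all 8 passed the filter on low counts. The samples were temporomandibular joint tissue of mice aged 10 weeks, described as littermates, in 2 groups of 3 libraries. One group carried Igf2bp2-KO (Igf2bp2-/-) and the other Igf2bp2-WT. The labels give no treatment, and the allele, the deleted exons, the strain, the sex and any pooling of animals are not stated.

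The temporomandibular joint links the jaw to the skull. Its condyle and disc are covered by or made of fibrocartilage, and chewing muscles insert near it through tendon and enthesis, the graded zone where tendon meets bone. Tendon cells are set up by transcription factors such as Scx and Mkx, which are known to drive tendon collagen and Tnmd expression. The matrix around the collagen fibrils holds thrombospondins and tenascins, and secreted antagonists tune the BMP signals that act at the enthesis.

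The bases before the start of transcription are shown for Angptl7, whose level differed, for Thbs2, which lay nearest to the threshold, and for Tnmd, a known target of Scx. Scx is a basic helix-loop-helix (bHLH) factor, and such factors bind the E-box, a motif of the letters CANNTG that reads the same way on both strands. Promoters of 5 of the 8 genes were matched by symbol in RefSeq sequence of build GRCm38.p6, and Scx, Mkx and Chrdl1 were not matched. The capitals mark E-boxes, and each window runs 5′ to 3′ over the 250 bases before the start. Angptl7 lies on the minus strand at chr4:148500463-148500712, Thbs2 on the minus strand at chr17:14694263-14694512 and Tnmd on the plus strand at chrX:133850758-133851007.
Angptl7: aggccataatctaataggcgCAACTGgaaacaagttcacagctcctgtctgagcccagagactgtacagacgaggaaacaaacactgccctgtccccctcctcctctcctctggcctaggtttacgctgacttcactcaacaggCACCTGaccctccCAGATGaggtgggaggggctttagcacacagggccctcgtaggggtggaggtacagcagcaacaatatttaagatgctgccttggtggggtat
Thbs2: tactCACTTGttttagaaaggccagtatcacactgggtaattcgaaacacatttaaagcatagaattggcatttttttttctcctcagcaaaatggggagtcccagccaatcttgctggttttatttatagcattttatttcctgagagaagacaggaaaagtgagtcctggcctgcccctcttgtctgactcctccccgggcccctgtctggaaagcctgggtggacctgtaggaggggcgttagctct
Tnmd: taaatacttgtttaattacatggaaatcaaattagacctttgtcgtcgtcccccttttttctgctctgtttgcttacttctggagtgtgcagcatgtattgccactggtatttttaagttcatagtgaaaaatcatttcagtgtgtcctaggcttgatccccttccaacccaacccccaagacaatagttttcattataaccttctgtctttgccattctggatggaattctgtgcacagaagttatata

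The Angptl7 window held 3 E-boxes, the Thbs2 window 1 and the Tnmd window 0. Of the windows not printed, that of Thbs4 held 1, and those of the 2 starts of Tnc, whose level did not pass, held 3 and 2. The Tnc windows overlap, so their E-boxes are in part the same. Of the called genes, Angptl7 alone had a window, so these numbers cannot be set against the calls. An E-box was present in 66.2% of the 32851 promoter windows of this length, so its presence in a window is common. These matches describe letters and are not binding sites. A window without the motif says nothing about binding elsewhere.

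Igf2bp2 itself was lower in the libraries labelled KO, at 0.314 ± 0.0275 CPM (SD, n = 2 samples), than in WT, at 1.10 ± 0.276 CPM, a log2 fold change of -1.80 (edgeR FDR 0.00588). CPM is the usual depth-scaled count, with the library total multiplied by a factor from the trimmed mean of M-values (TMM). Libraries held 28551236 to 35094127 counts. Nuclear genes took 4604575 to 4899680 of these in KO and 2625472 to 3205190 in WT, and mitochondrial genes took the rest. Over the median gene, KO 1 and KO 3 were closer than counting noise allows one to separate, and so were WT 2 and WT 3. Their median variance ratios to counting noise were 0.941 and 0.964, although the mean ratios, at 1.18 and 1.08, were above it. Each pair differed by less than the sampling noise in the median gene but not in every gene, and was summed and counted as 1 sample. That left 2 samples per group. Whether libraries are separate animals is not stated. The p-values therefore reflect how far these samples scatter, a scatter that may be purely technical.

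Of the 8 genes, 1 was higher in KO (Angptl7), 2 were lower (Scx and Chrdl1) and 5 did not pass. The test was edgeR's quasi-likelihood test with a false discovery rate (FDR) under 0.05 over 14632 genes. Across all tested genes 17.6% passed, 9.15% higher in KO and 8.48% lower. The KO and WT libraries were fully separated for 4 of the 8 genes and for 38.5% of all tested genes. The median log2 fold change was -0.20 over the 8 genes and -0.01 over all tested genes. The genes were chosen with earlier results of these data known, so their counts do not stand for the tendon transcriptome as a whole.

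**Figure D1:**
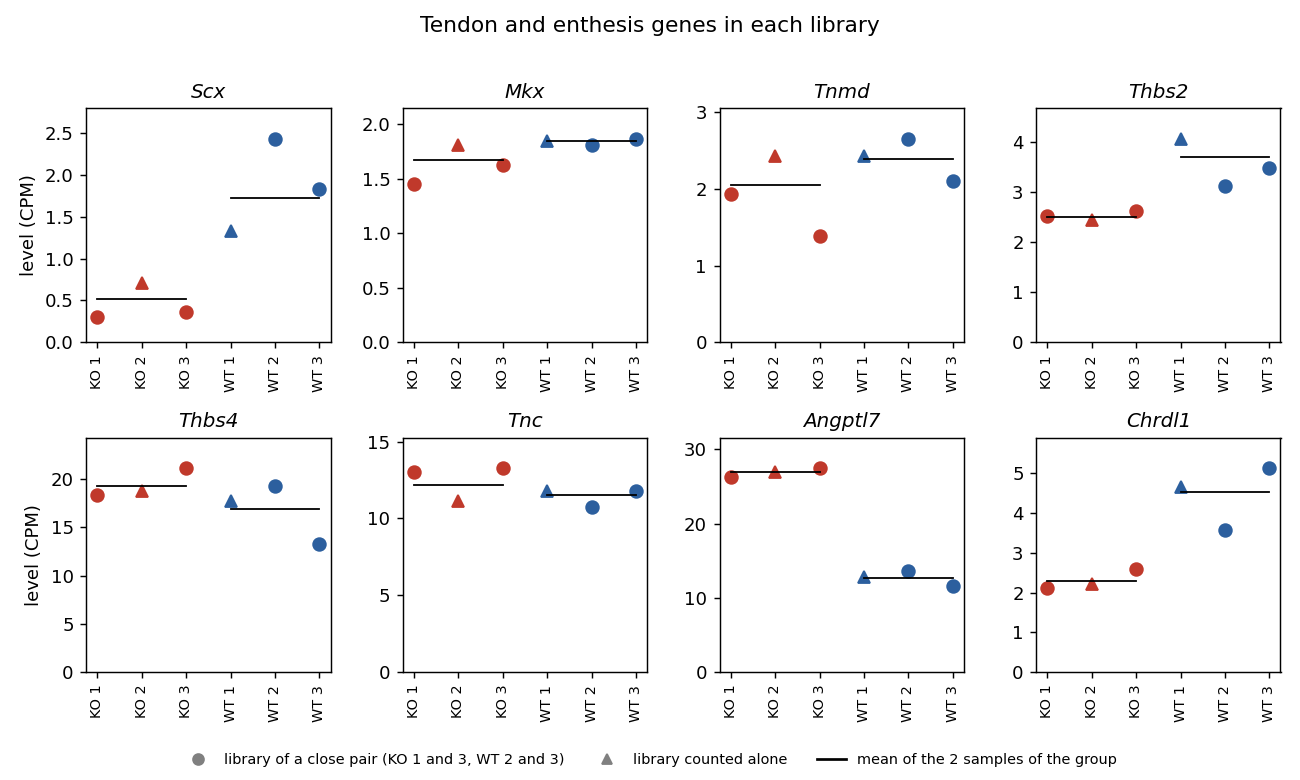
Level of each tendon and enthesis gene in each of the 6 libraries (vertical axis, CPM from 0, with its own scale per gene). Circles are libraries of the close pairs, triangles are libraries counted alone, and black lines are means of the 2 samples of a group. KO libraries lay below WT for Scx, Thbs2 and Chrdl1 and above WT for Angptl7, and the groups overlapped for the other 4 genes.

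Scx, the bHLH factor that marks tendon progenitors, had counts of 12, 30 and 14 across KO, against 39, 55 and 47 across WT, each listed in the order of libraries 1, 2 and 3, as are all such values that follow. Scaled, these were 0.305, 0.714 and 0.360 CPM in KO and 1.33, 2.43 and 1.82 CPM in WT. Every KO library was below every WT library, with KO 2 the highest of KO and WT 1 the lowest of WT. Group levels were 0.523 ± 0.270 (KO) and 1.72 ± 0.546 CPM (WT; SD, n = 2), a 3.54-fold lower level in KO (log2 fold change -1.82, 95% interval -2.67 to -0.98, edgeR FDR 0.00617). Scx had the largest change of the 8 genes and also the fewest counts, 56 over KO and 141 over WT. Each read pair was probably counted as 2, so the read pairs were fewer than these counts. The Scx interval was the widest of the 8. Between the samples counted alone, KO 2 minus WT 1, the log2 difference of Scx was -0.82 (0.1 CPM added). Between the summed samples, KO 1 and 3 minus WT 2 and 3, it was -2.35, so the fold averages unlike steps.

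In the GENCODE annotation of GRCm38, Scx lies inside Bop1, a ribosome biogenesis gene on the opposite strand, with no shared exon bases. Reads of Bop1 introns and reads of Scx cannot be told apart where counting ignores strand, and no source used here gives the strand setting. Bop1 had 2.06 to 2.36 CPM in KO and 2.46 to 3.71 CPM in WT, a log2 difference of -0.46 (edgeR FDR 0.162). The count of Scx for each count of Bop1 was 0.143, 0.303 and 0.175 across KO, against 0.542, 0.655 and 0.534 across WT. The ratio uses all counts of Bop1 and not its intron reads, so it does not measure their part in the Scx count. Whether Bop1 reads take part in the Scx difference was not tested further.

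Mkx, a homeobox factor that promotes the growth of tendon collagen fibrils, did not pass. It had 1.45, 1.81 and 1.62 CPM across KO, against 1.85, 1.81 and 1.86 CPM across WT. KO 2 and WT 2 were level, so the groups overlapped. In the same annotation Mkx shares 201 exon bases with AC148004.2 on the same strand, which has no row in the count table. The part of such reads in the Mkx count was not tested. The log2 difference was -0.15 (95% interval -0.64 to 0.34, edgeR FDR 0.716), an interval that includes decreases and increases of moderate size.

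Tnmd encodes tenomodulin, a membrane glycoprotein of mature tendon cells and a known target of Scx. Its levels were 1.93, 2.43 and 1.39 CPM across KO, against 2.43, 2.65 and 2.1 CPM across WT. KO 3 was the lowest library, and KO 2 lay among the WT libraries. KO 1 and KO 3 differed in Tnmd by 1.43 SD of counting noise. The log2 difference was -0.25 (95% interval -0.74 to 0.24, edgeR FDR 0.515).

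Ratios of counts within a library do not depend on how libraries are scaled. The count of Scx for each count of Tnmd was 0.158, 0.294 and 0.259 across KO, against 0.549, 0.917 and 0.870 across WT. For each count of Mkx it was 0.211, 0.395 and 0.222 in KO and 0.722, 1.34 and 0.979 in WT. Scx was thus lower relative to the other tendon factor and to the tendon membrane gene in each KO library than in each WT library. With 2 samples against 2, an exact two-sided permutation test cannot go below 0.333, so these ratios carry no test.

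Among the matricellular genes, none passed. Thbs2 encodes a thrombospondin that limits collagen fibril thickness and vessel growth. It had 2.52, 2.45 and 2.63 CPM across KO, against 4.07, 3.13 and 3.49 CPM across WT. The 3 KO libraries lay close together and below all WT libraries. The group levels were 2.51 ± 0.0856 and 3.70 ± 0.527 CPM (SD, n = 2), with a log2 difference of -0.54 (95% interval -0.94 to -0.14). The unadjusted p was 0.0113 and the edgeR FDR 0.0601. Thbs2 passed in 3 of 16 alternative settings. These were the 6 libraries as separate samples (FDR 0.0288), which counts the close pairs as separate, at least 50 counts in 3 libraries (FDR 0.0495), and without WT 2 (FDR 0.0488). Among the settings it did not pass were the DESeq2 Wald test (-0.54, FDR 0.256) and scaling to fibroblast marker genes (-0.31, FDR 0.256).

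Thbs4, a thrombospondin of tendon and of the muscle-tendon junction, had 18.4, 18.8 and 21.1 CPM across KO, against 17.8, 19.3 and 13.3 CPM across WT. WT 3 was the lowest library, and WT 2 lay above KO 1 and KO 2. WT 2 and WT 3, which were summed, differed in Thbs4 by 3.63 SD of counting noise (437 and 342 counts), the largest gap within a summed pair among the 8 genes. The log2 difference was 0.19 (95% interval -0.05 to 0.43, edgeR FDR 0.287). Scaled to fibroblast marker genes in place of library size, Thbs4 passed as higher in KO (0.42, FDR 0.0382), under a scaling that moved the median of all genes to 0.22.

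Tnc encodes tenascin C, a hexameric glycoprotein laid down where tendon is loaded and where it joins muscle and bone. Its levels were 13.0, 11.2 and 13.3 CPM across KO, against 11.8, 10.8 and 11.8 CPM across WT. KO 2 fell among the WT libraries. In the GENCODE annotation Tnc shares 176 exon bases with 8030451A03Rik on the opposite strand, and the part of its reads in the Tnc count was not tested. The log2 difference was 0.08 (95% interval -0.19 to 0.35, edgeR FDR 0.724).

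Of the secreted genes, Angptl7 rose and Chrdl1 fell. Angptl7 encodes an angiopoietin-like protein of connective tissue, best known from the cornea and the outflow tissue of the eye. It had 1034, 1134 and 1066 counts across KO, against 376, 310 and 299 across WT. The scaled levels were 26.3, 27.0 and 27.4 CPM in KO and 12.9, 13.7 and 11.6 CPM in WT. The groups were far apart, and the KO libraries differed from one another by little. The group levels were 26.9 ± 0.0794 and 12.7 ± 0.200 CPM (SD, n = 2), a 2.12-fold higher level in KO (log2 fold change 1.08, 95% interval 0.85 to 1.32, edgeR FDR 1.54e-05).

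Angptl7 lies inside Mtor, a growth-control kinase gene on the opposite strand, with no shared exon bases in the same annotation. Mtor was also higher in KO, at 5.31 ± 0.433 against 3.61 ± 0.0696 CPM (log2 fold change 0.55, edgeR FDR 0.0290). The count of Angptl7 for each count of Mtor was 5.02, 4.81 and 5.76 across KO, against 3.62, 3.20 and 3.74 across WT. This ratio too uses all counts of Mtor and not its intron reads, so it does not measure their part in the Angptl7 count. The part of Mtor reads in the Angptl7 count was not tested further.

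Chrdl1 encodes a chordin-like protein that binds and blocks BMPs. It had 83, 93 and 101 counts across KO, against 136, 81 and 132 across WT, from smaller nuclear totals in WT. The scaled levels were 2.11, 2.21 and 2.60 CPM in KO and 4.65, 3.57 and 5.13 CPM in WT. WT 2 was the lowest WT library and still above KO 3. The difference of WT 2 from WT 3, which were summed, was -1.84 SD of counting noise, a gap that the WT SD below does not hold. The group levels were 2.28 ± 0.10 and 4.53 ± 0.179 CPM (SD, n = 2), a 1.97-fold lower level in KO (log2 fold change -0.98, 95% interval -1.35 to -0.61, edgeR FDR 0.00129).

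Angptl7 and Chrdl1 moved in opposite directions, so the number of Angptl7 counts for each count of Chrdl1 was 12.5, 12.2 and 10.6 across KO, against 2.76, 3.83 and 2.27 across WT. Against Thbs4, whose level did not pass, the Angptl7 count ratio was 1.43, 1.44 and 1.30 in KO and 0.723, 0.709 and 0.874 in WT. The first ratio restates that the 2 genes moved apart, and the second did not overlap between the groups.

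**Figure D2:**
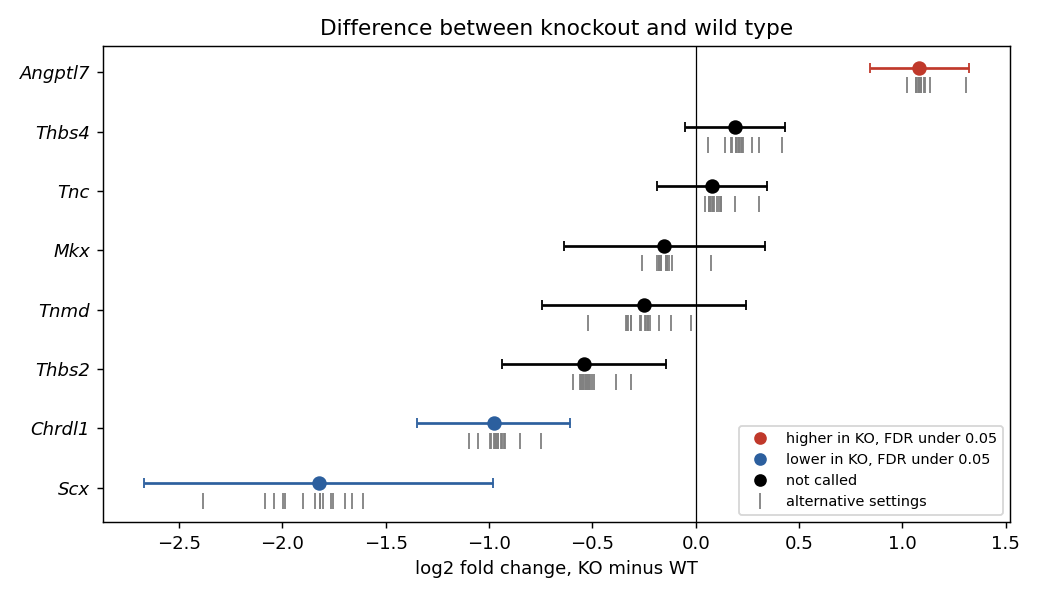
Log2 fold change of each gene, KO minus WT, with its 95% interval (dots and bars) and, as grey ticks below, the fold changes under the alternative settings. Angptl7 at 1.08 lay above 0, and Chrdl1 at -0.98 and Scx at -1.82 lay below it, with all their ticks. Tnmd, Thbs2, Thbs4 and Tnc, which were not called, also kept all ticks on the same side of 0. The Mkx ticks fell on either side of 0.

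Angptl7 and Chrdl1 passed in each of 16 alternative settings, and Scx in the 15 in which it was tested. In the settings without KO 2 or without WT 1, one group is a single summed sample, which is assumed to vary like the other group, so they are weaker checks. Angptl7 ranged from 1.02 to 1.31 on the log2 scale, Chrdl1 from -1.10 to -0.75 and Scx from -2.38 to -1.61. The largest Scx change came without KO 2, its highest KO library, and the smallest with scaling to fibroblast markers. Mkx ranged from -0.26 to 0.07, with the positive value under that scaling, and Tnmd ranged from -0.52 to -0.02.

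Per length of the longest transcript, the 8 genes ordered differently in the groups. In WT, Angptl7 was highest with 5.90 ± 0.0927 CPM per kilobase (SD, n = 2), followed by Thbs4 with 5.30 ± 0.375. Tnmd had 1.77 ± 0.0387, Tnc 1.62 ± 0.0446 and Chrdl1 1.10 ± 0.0436 CPM per kilobase. Scx had 0.857 ± 0.272, Thbs2 0.627 ± 0.0894 and Mkx 0.505 ± 0.00172 CPM per kilobase. Between neighbours in this order, the samples of Scx and Thbs2 overlapped, and those of the other neighbours did not.

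In KO, Angptl7 had 12.5 ± 0.0368 CPM per kilobase and Thbs4 6.03 ± 0.206, so the gap between the 2 most abundant genes was wider. Chrdl1 had 0.558 ± 0.0244, Mkx 0.458 ± 0.0529 and Thbs2 0.426 ± 0.0145 CPM per kilobase. Scx stood sixth of the 8 genes in WT and last in KO, where it had 0.261 ± 0.134 CPM per kilobase. The samples of Tnc and Tnmd, and of Mkx and Thbs2, overlapped in KO. The longest transcript need not be the one expressed, so these levels are approximate.

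**Figure D3:**
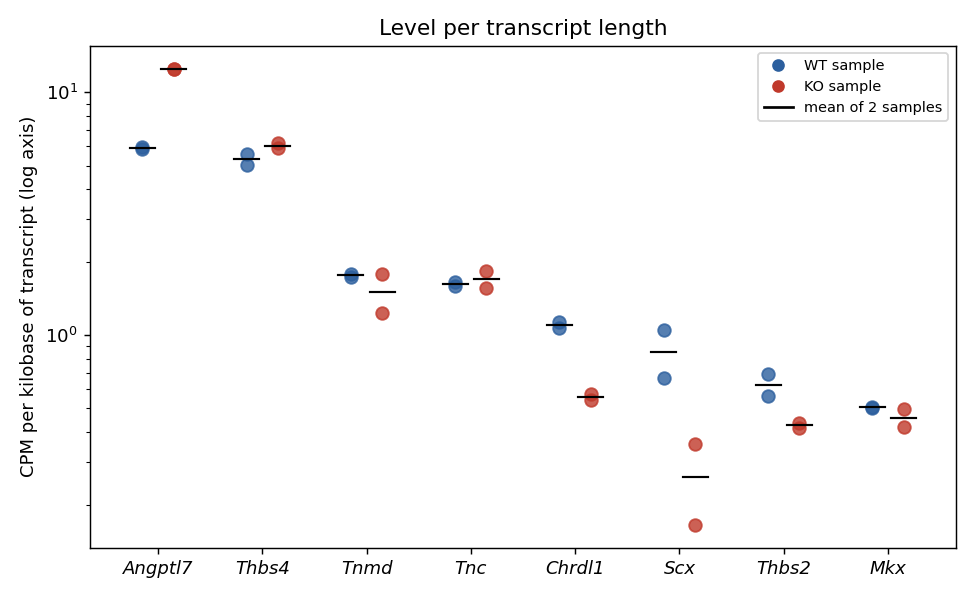
Level of each gene divided by the length of its longest transcript (log axis, CPM per kilobase), with genes ordered by their WT mean. Dots are the 2 samples of each group and bars their means, and Scx moved from sixth place in WT to last place in KO, at 0.261 CPM per kilobase.

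The summed level of the 8 genes was 66.0 to 70.4 CPM in KO libraries and 51.1 to 57.3 CPM in WT libraries. Angptl7 made up 39.0% to 40.5% of this sum in KO and 22.7% to 23.9% in WT. Without Angptl7 the sum was 39.6 to 43.0 CPM in KO and 39.5 to 43.9 CPM in WT, and the groups overlapped. The higher sum in KO thus rests on 1 gene.

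Across the 6 libraries, the log2 level of Chrdl1 correlated with that of Thbs2 (Pearson r 0.94) and inversely with that of Angptl7 (r -0.96), and Scx correlated with Mkx (r 0.84) and inversely with Angptl7 (r -0.90). These values describe 6 libraries of which 2 pairs are near copies, and the difference between the groups sets much of them. By the same measure, the genes most like Angptl7 among 4974 genes of at least 5 CPM were Sulf1, Fbxo31 and Lpin1 (each r = 0.998). The genes most like Chrdl1 were Thap12 (r = 0.996), Ric1 (r = 0.990) and Mcrip1 (r = 0.988). Sulf1 differed by 0.66 on the log2 scale, and Fbxo31 and Lpin1 by 1.14 and 1.11.

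Relatives of the 8 genes were counted by family. The 5 thrombospondins, Thbs2 and Thbs4 included, had no called member. Thbs1 and Thbs3 had log2 differences of 0.08 and -0.00, and Comp, the thrombospondin of cartilage and tendon, -0.23 (edgeR FDR 0.346). At an unadjusted p under 0.05, Thbs2 was the family's 1 member, and neither the DESeq2 Wald test nor limma-voom called any (0 each). Of 3 tested tenascins, Tnn, a tenascin of periosteum and tooth ligament, fell by 0.81 on the log2 scale (edgeR FDR 0.00483). Left with 1 KO sample, without KO 2, Tnn kept a similar fold (-0.74) but did not pass (FDR 0.0761). Tnc and Tnxb did not pass.

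The angiopoietin-like family moved in both directions. Of 5 tested members, Angptl7 and Angptl4, a lipoprotein lipase inhibitor, were higher, and Angptl4 rose by 1.47 (edgeR FDR 2.07e-05). Angptl2, a secreted protein tied to inflammation, fell by 0.80 (FDR 0.000771). Among 12 tested BMP antagonists, Chrdl1 and Sostdc1 were called lower and none was called higher. Across all tested genes 17.6% were called in either direction. Sostdc1 fell by 0.93 (FDR 0.0216), but it did not pass with the DESeq2 Wald test (FDR 0.118) or with fibroblast scaling (FDR 0.0722). It did not pass without KO 2 (-0.93, FDR 0.129) or without WT 1 (-0.82, FDR 0.0821) either, fits at a similar fold in which one group is 1 sample. Noggin (Nog) leaned higher in KO, with 59 counts over KO and 21 over WT (log2 difference 0.88, 95% interval -0.24 to 2.01). It did not pass (edgeR FDR 0.286), and a difference in it was hard to detect at this depth. Chrdl2, the nearest relative of Chrdl1, had 27 WT counts and a 95% interval of -1.80 to 0.60.

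The relatives of Tnmd share the BRICHOS fold. Cnmd, its cartilage counterpart chondromodulin, had 36 counts in each group and did not pass (log2 difference -0.63, edgeR FDR 0.441). Itm2a, the one called of 5 tested, fell by 1.00 (FDR 0.000153). Of 4 tested genes in the group of Mkx and the Iroquois factors, Irx2 rose by 1.84 on 83 counts in KO and 15 in WT (FDR 0.0147). Irx2 did not pass in the DESeq2 Wald test (FDR 0.0676), nor without KO 2 (FDR 0.128), where 1 KO sample was left and the fold was similar (1.74).

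**Figure D4:**
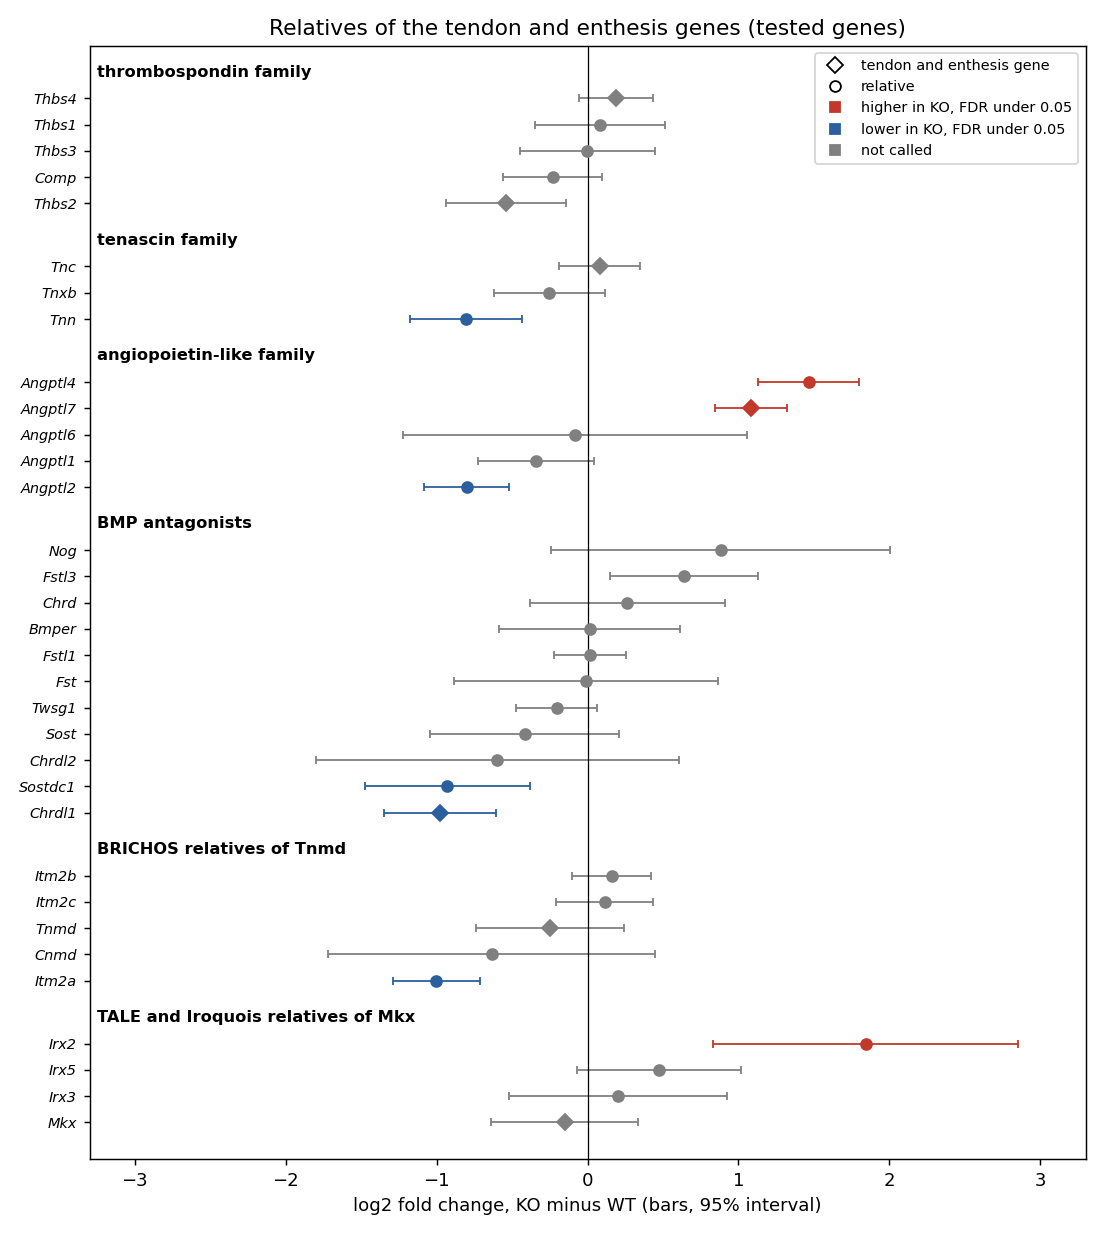
Log2 fold change, KO minus WT, with 95% intervals for genes tested in 6 families (rows, with 1 BMP antagonist not drawn), with diamonds for the tendon and enthesis genes and circles for their relatives. No thrombospondin was called, while the angiopoietin-like family held 2 higher genes and 1 lower gene.

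Of 17 tested regulators of tendon formation, 5 were lower in KO and 1 was higher, with a median log2 fold change of -0.40. Across all tested genes 8.48% were lower and 9.15% higher. Scx and Mkx are 2 of the 17 regulators, and Scx is 1 of the 5 lower ones. The higher one was Tgfbr1, a TGF-beta receptor gene (log2 fold change 0.64, edgeR FDR 0.0273). Egr1, a load-responsive factor that acts on Scx and tendon collagen, fell by 1.93 (edgeR FDR 1.47e-06), and Egr2, its relative, fell by 0.93 (FDR 0.000263). Egr2 also drives myelination and is in the Schwann cell list below. Tgfb3, a ligand that induces Scx, had 15.1 ± 1.01 CPM in KO and 24.1 ± 3.43 CPM in WT (log2 fold change -0.67, FDR 0.0021). Among 10 bHLH partners and inhibitors of Scx, Twist1 fell by 0.99 (FDR 0.00278) and Hand2 rose by 0.80 (FDR 0.00484, and 0.0582 at 0.78 without KO 2, with 1 KO sample). The E proteins Tcf3, Tcf4 and Tcf12, with which Scx pairs, did not pass, with log2 differences of -0.44 (edgeR FDR 0.0519), -0.19 (FDR 0.294) and -0.31 (FDR 0.114). At an unadjusted p under 0.05, 7 of the 10 differed, but the share of all tested genes at that p was not counted, so the 7 have no background. From the 10, limma-voom called 4 and edgeR 2. Over all 14632 tested genes limma-voom called 2704 and edgeR 2580. Tcf3, Tcf4 and Tcf12 were named outside the rule for named genes.

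Tendon matrix genes had 4 members higher and 6 lower of 28 tested, with a median of -0.21. Ogn, the proteoglycan osteoglycin, fell by 1.11 (edgeR FDR 1.89e-05). Eln, elastin, rose by 1.00 (FDR 3.04e-05), and Col1a1 by 1.11 (FDR 0.000134). In fibrocartilage and enthesis matrix, 3 of 13 tested genes were higher and 1 lower. Prg4 and Col11a2 rose by 2.02 and 2.16 (FDR 2.13e-07 and 5.92e-06), and Col10a1 fell by 2.19 (FDR 0.0011). Of 15 receptors of thrombospondins and tenascin C, 3 were higher and 1 lower. The thrombospondin receptors Cd36 and Cacna2d1 rose by 1.41 and 0.85 (FDR 6.48e-06 and 0.000269), and Itgb8, an integrin subunit, fell by 1.53 (FDR 0.000287). Cd36 is also abundant in muscle, capillaries and fat.

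Markers of the tissues in the sample also differed between the groups, and in bulk tissue fewer cells of a type and less RNA per cell cannot be told apart. Fibroblast markers, the nearest to tendon cells, had 4 of 15 lower and 1 higher, and summed to 610 to 637 CPM in KO and 699 to 775 CPM in WT, with Gsn the most abundant. Scaled to that sum, Scx and Chrdl1 were still lower (-1.61 and -0.75, edgeR FDR 0.0184 and 0.0113) and Angptl7 higher (1.31, FDR 4.53e-05). Under this scaling 79.0% of the called genes were higher in KO, against 51.9% with TMM.

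Fast muscle markers had 6 of 15 higher and none lower, with sums of 8464 to 9770 CPM in KO and 5590 to 7673 CPM in WT, led by Ckm. Leaving this list and the mitochondrial genes out of the library sizes gave -1.82 for Scx, -0.97 for Chrdl1 and 1.09 for Angptl7, all called. TMM scaling was applied again after the removal, so values close to those of the main fit were built in. This setting therefore does not measure the part of muscle. Smooth muscle and pericyte markers, led by Des, had 4 of 10 higher, and summed to 362 to 380 CPM in KO and 274 to 275 CPM in WT. Schwann cell markers had 9 of 10 lower, with 492 to 510 CPM in KO and 1428 to 1473 CPM in WT. Macrophage markers, led by Lyz2, had 7 of 10 lower, with 60.1 to 61.2 CPM in KO and 94.4 to 116 CPM in WT. Salivary gland markers, led by Bpifa2, had all 10 tested higher, with 513 to 547 CPM in KO and 40.2 to 43.6 CPM in WT.

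Osteoblast markers, led by Bglap, had 3 of 10 higher, with 92.0 to 98.0 CPM in KO and 58.8 to 60.3 CPM in WT. Synovial lining markers, led by Prg4, had 2 of 6 higher and 1 lower, with 76.8 to 86.0 CPM in KO and 48.9 to 52.9 CPM in WT. Chondrocyte markers, led by Sox9, had none of 7 called and summed to 7.56 to 9.19 CPM in KO and 8.82 to 10.7 CPM in WT, so the defining cartilage genes were detected but low in both groups. At an unadjusted p under 0.05, 0 of those 7 passed, and the DESeq2 Wald test and limma-voom called 0. Eye and cornea markers were counted because the eye is known for Angptl7: the lens gene Cryaa and the cornea gene Krt12 had no count in KO and 5 and 3 in WT. Myoc was the one of 4 tested that was higher (0.52, edgeR FDR 0.0117, not called by DESeq2), the list summed to 47.6 to 51.9 CPM in KO and 45.7 to 49.6 CPM in WT, and Lum, its most abundant gene, is also a fibroblast gene. The part of muscle, nerve, gland, bone, synovium and immune cells in the differences of Scx, Chrdl1 and Angptl7 was not tested.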

How the data were processed

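RNA of 6 libraries (3 KO and 3 WT), made with an mRNA isolation kit per the labels' protocols, was sequenced. The authors deposited whole-number counts by gene symbol in 1 table, not normalized as its values show. HISAT2 2.1.0, StringTie 2.1.5 and build mm39 are named in the submitters' processing notes. No source used here gives the annotation, the strand setting or how shared reads were assigned. Genes at 2 counts outnumbered those at 1 by 4.69 to 5.06 times, so each pair was probably counted as 2 reads.

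KO 1 and KO 3, and WT 2 and WT 3, had median ratios of observed to counting variance of 0.941 and 0.964 (means 1.18 and 1.08; medians of other pairs within a group 1.31 to 1.63), over genes of at least 20 summed counts, and were summed. Genes were filtered across the whole table with filterByExpr (minimum count 10), scaled by TMM and tested with edgeR 4.0.16 (robust quasi-likelihood, group as the term) in R 4.3.3, with Benjamini-Hochberg adjustment over all tested genes and a threshold of 0.05. CPM of a library uses the TMM factor of its sample. SE is the absolute log2 fold change divided by the square root of F, and 95% intervals use it. The test was checked on simulated data. limma 3.58.1 and DESeq2 1.42.0 served as alternatives. Transcript lengths came from GENCODE transcripts of GRCm38, which 18700 of the symbols matched, and promoters from RefSeq, GRCm38.p6.

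The 8 genes, the gene lists and the close pairs were chosen with earlier results of these data known. Named genes are the 8 genes, up to 3 called members of smallest p of each related list (or its most abundant one), the most abundant gene of each marker list (1 of these is not reported here), and for the gene of smallest p in each direction the 3 most correlated genes (log2 of CPM plus 0.1). Exceptions are genes that overlap the 8 genes. Members of the small families, Tgfbr1, Tcf3, Tcf4, Tcf12, Myoc, Krt12 and Cryaa are exceptions too, and were named after their values were seen.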

Additional observations from a re-analysis of the deposited data

How the results depend on the processing

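Of 16 alternative settings, 6 left out a library. The number of called genes (2580) was 1634 with the DESeq2 Wald test and ranged from 1149 (without KO 2) to 2432 when a library was left out. Without KO 2 or WT 1 (2396) one group is 1 summed sample, assumed to vary like the other; the other 4 such fits keep 2 samples per group. The number of tendon and enthesis genes called was 3 or 4 in each setting, and that of higher ones was 2 with scaling to fibroblast markers, where Thbs4 joined Angptl7. That scaling shifted the median of all genes to 0.22. Across the 8 genes no called gene lost its call or changed direction, and the 4 gains were 3 of Thbs2 and 1 of Thbs4. Scx was not tested with at least 50 counts in 3 libraries.

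The replicate numbers did not pair the samples: deviations from the group means of same-numbered libraries correlated at -0.06, -0.08 and 0.03, and the highest value was between unlike numbers (KO 2 and WT 1, 0.13). With 6 separate libraries and the replicate block 2939 genes were called, against 3456 without the block. The block removed the Thbs2 call of that fit (FDR 0.0536), and the other calls among the 8 genes did not change.

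Scx rests on 56 counts in KO and 141 in WT, and on fewer read pairs if each pair was counted as 2. Counts carry no molecular identifiers, so repeated reads of the same molecule cannot be told from reads of separate molecules.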
